A study of Mus musculus with 23 samples.

Results

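Gene expression after 12 h of retinoic acid (RA) was set against that after 6 h in F9 cells, a line of mouse embryonal carcinoma whose cells differentiate to extraembryonic endoderm in RA. The members were the libraries whose titles give mRNA at 12 h, replicates 1 and 2, and mRNA at 6 h, replicates 1 and 2, which made 4 of the 14 mRNA libraries and of the 23 samples in all. Each 12 h library was compared with the 6 h library of the same number, to show which transcripts still rose and which already fell between both early times. The cells of all 4 libraries had received all-trans RA at 1e-07 M, diluted from a stock in dimethyl sulfoxide (DMSO). So had those of the 24 and 48 h libraries used here to estimate the spread, while the 0 h libraries had no time in RA. The labels name no genetic change in the line. Controls with DMSO alone, at 0.001%, were taken at 24 and 48 h only, so time in RA and time in culture cannot be told apart between 6 and 12 h. The labels do not say that replicates were separate cultures, so p-values reflect no more than the spread among these libraries, and that spread may be technical.

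RA enters cells as a small lipophilic hormone made from retinol (vitamin A) and binds retinoic acid receptors (RARs), which pair with retinoid X receptors (RXRs) on DNA at response elements, often direct repeats of a short motif. Classic targets include the receptor gene Rarb, the Cyp26 enzymes that destroy RA and so limit its own signal, and the Hox clusters, whose genes are switched on in their order along the chromosome. In F9 cells RA is known to lead to loss of the pluripotent state and to activation of the endoderm regulators of the Gata, Sox and Foxa families.

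The 4 libraries held 8379684 and 8586828 gene counts (replicate 1 at 6 and 12 h) and 10619213 and 10575806 (replicate 2). Replicates 1 and 2 belonged to different sets of libraries: the reads without a feature made up 57.3 to 59.43% (number 1, 0 to 48 h) and 52.81 to 53.77% (number 2) of the sum of these reads and the gene counts. The deviation of number 1 from number 2 correlated between 6 and 12 h across genes (r = 0.784), and the comparison by number takes out what it shares. As background for what the cultures held, all 6 defining markers of pluripotency were present. They ran from Pou5f1 at 1357 to 2433 CPM (the count per gene after scaling libraries to one size) to Utf1 at 132 to 474 CPM. Of visceral endoderm, Afp and Ttr had 0 counts in the 4 libraries, and Apoa1, Amn and Cubn reached 0.121, 0.909 and 4.80 CPM. The highest level of each primitive endoderm marker ran from 1.09 (Foxa2) to 138 CPM (Sox7). For parietal endoderm and basement membrane markers it ran from 0.485 (Thbd) to 708 CPM (Sparc). These are bulk samples, in which fewer cells of a type and less RNA per cell cannot be told apart.

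Between 6 and 12 h the Hox genes Hoxb2, Hoxa5, Hoxb1 and Hoxa4, the RA-binding protein gene Crabp2, the germ cell gene Stra8 and the endoderm factor gene Foxa1 were among 12 genes that rose, and the immediate early gene Egr1, the BMP target Id3 and Fam129b were the 3 that fell. This was at an adjusted p under 0.05 in edgeR's quasi-likelihood test, with the replicate number as a block and all 10 numbered libraries of 0 to 48 h in the fit, and it made 15 of 15308 genes tested (0.098%; 0.0784% higher and 0.0196% lower). Each of the 15 had the same sign in both pairs of libraries and in every alternative run. The test with the block favours genes whose pairs agree, and the alternative runs reuse these libraries, so a shared sign is no independent check. Of the 15, 1 was still called in each of the 10 fits that left out 1 library. At an unadjusted p under 0.05 there were 1252 genes, and DESeq2 on the same 10 libraries called 83 genes, 51 higher and 32 lower.

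How many genes passed depended on which libraries set the spread. With the 4 libraries of 6 and 12 h alone, 1844 of 13911 genes were called (13.3%), 879 higher (6.32%) and 965 lower (6.94%). With 0, 6 and 12 h, chosen after seeing the data, 971 of 14226 were called (6.83%), 451 higher (3.17%) and 520 lower (3.66%), and the 15 genes were called in both. The biological coefficient of variation common to all genes was 13.5% over the 10 libraries, 6.88% over 0 to 12 h and 5.78% over the 4 libraries, where 1 residual degree of freedom is left and the spread of a gene leans on that of the others. Without the replicate block edgeR called 0 genes in the 10 libraries (266 at an unadjusted p under 0.05) and 0 in the 4 (173). Calls and adjusted p below are from the fit of 10 libraries, unless another fit is named. Values ± standard error on the log2 scale, and medians, are from the fit of 10 libraries throughout, also where they stand beside calls of the 4 libraries. Counts of list members are to be read beside the shares over all genes in the same fit. The lists and their members were chosen with earlier results of these data known. A share above that over all genes is therefore a description and no independent evidence. At an unadjusted p under 0.05 in edgeR over 10 libraries, 616 of all 15308 genes were higher and 636 lower.

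**Figure D1:**
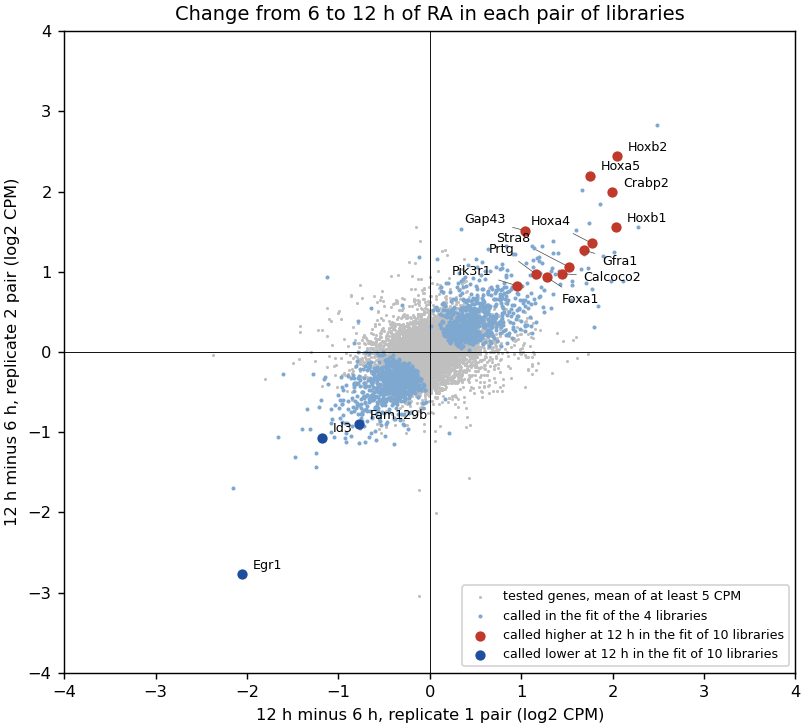
Each point is a gene with a mean of at least 5 CPM over the 4 libraries. The horizontal axis gives its log2 difference of 12 from 6 h between the replicate 1 libraries and the vertical axis that between the replicate 2 libraries. Large red points are the 12 genes that rose and large dark blue points the 3 that fell in the fit of 10 libraries, and light blue points are further genes called with the 4 libraries. The 15 genes lie in the quadrants where both pairs moved the same way.

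With 1 library left out, the total was 3 without replicate 1 and 2 without replicate 2 of 6 h, 4 without replicate 1 and 1 without replicate 2 of 12 h, and 85 and 92 without replicate 1 or 2 of 24 h, 34 and 38 without replicate 1 or 2 of 48 h. Crabp2 was called in each of these 10 fits, at an adjusted p of up to 0.00936.

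Among genes that handle the hormone itself, Crabp2 (ENSMUSG00000004885), which carries RA to its receptors in the nucleus, had the largest rise. It stood at 24.3 and 19.5 CPM at 6 h (replicates 1 and 2) and at 97.1 and 78.1 CPM at 12 h, after 10.3 and 5.29 CPM at 0 h. Both 12 h libraries lay above both 6 h libraries, and Crabp2 rose by 2.00 ± 0.16, or 4.00-fold (adjusted p = 0.000195). Stra6, the cell-surface receptor for retinol uptake, read 14.8 and 15.8 CPM at 6 h and 21.5 and 29.6 CPM at 12 h (0.74 ± 0.20, adjusted p = 0.299). Dhrs3, which turns retinaldehyde back to retinol, went from 13.0 and 11.7 CPM to 22.3 and 14.5 CPM (0.53 ± 0.23, adjusted p = 0.591). For Stra6 and Dhrs3 each 12 h library was above each 6 h library. With the 4 libraries, 4 of 9 tested genes of retinoid transport and synthesis were called higher, Crabp2, Stra6 and Dhrs3 among them, and 0 lower, beside 6.32% and 6.94% of all genes.

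Of the 3 enzymes that break down RA edgeR called 0 over 10 libraries (1 higher at an unadjusted p under 0.05, DESeq2 0). Cyp26a1, a direct RA target, stood at 1.69 and 6.23 CPM at 0 h, at 99.5 and 214 CPM at 6 h and at 123 and 235 CPM at 12 h. The difference from 6 to 12 h was 0.20 ± 0.29 (adjusted p = 0.893), the groups overlapped, and the sign turned to -0.07 without replicate 1 of 6 h and to -0.01 without replicate 2 of 12 h. Cyp26b1, with 0 counts in both 0 h libraries, had 11.3 and 7.47 CPM at 6 h and 33.3 and 13.9 CPM at 12 h, a difference of 1.27 ± 0.51 (adjusted p = 0.592). Cyp26c1 had 1.95 and 2.49 CPM at 6 h and 5.58 and 3.59 CPM at 12 h (0.95 ± 0.48, adjusted p = 0.643). For both, each 12 h library was above each 6 h library, with the wider step in replicate 1. With the 4 libraries Cyp26b1 was called higher at an adjusted p = 3.65e-07 and Cyp26a1 at 0.0444. That the change of one enzyme differed from that of another was not tested.

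Of the receptors, Rarb read 0.613 and 0.472 CPM at 0 h, 15.6 and 14.8 CPM at 6 h, and 26.3 and 23.5 CPM at 12 h. Its groups did not overlap, and the difference of 0.71 ± 0.18 did not pass over 10 libraries (adjusted p = 0.236) and did with the 4 (adjusted p = 0.000343). Nrip1, a corepressor that ligand-bound receptors recruit, went from 86.6 and 84.9 CPM to 132 and 116 CPM (0.54 ± 0.21, adjusted p = 0.546; with the 4 libraries 3.1e-06). The other RAR and RXR genes had negative values: Rara -0.44 ± 0.17, Rarg -0.32 ± 0.13, Rxra -0.48 ± 0.22, Rxrb -0.33 ± 0.19 and Rxrg -0.68 ± 0.27, with adjusted p from 0.546 to 0.697. Rarg, the RAR gene known for its role in F9 differentiation, had 713 and 636 CPM at 6 h and 632 and 464 CPM at 12 h. In the fit of the 4 libraries 5 of 8 tested receptors and cofactor genes were called lower, which were these 5, and 2 higher, Rarb and Nrip1. Over all genes 6.94% were called lower and 6.32% higher in that fit. The same list also holds Nr2f2 (1.61 ± 0.95) and Nr2f1 (0.34 ± 1.12), at no more than 0.756 and 0.364 CPM in the 4 libraries, and Nr2f6 (-0.07 ± 0.18).

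Among the RA targets Rarb, Cyp26a1 and Stra8, edgeR over 10 libraries called Stra8 between 6 and 12 h. Rarb (adjusted p = 0.236) and Cyp26a1 (adjusted p = 0.893) did not pass in that fit. Whether the change of one of these genes differed from that of another was not tested. The promoters of Rarb, Cyp26a1 and Stra8 are shown. Each is the 250 bases before the transcription start in RefSeq (build GRCm38.p6), read on the strand of the gene: chr14:16575477-16575726 on the minus strand for Rarb, chr19:37697558-37697807 on the plus strand for Cyp26a1, and chr6:34920698-34920947 on the plus strand for Stra8. The receptor motif was searched on both strands as AGGTCA and with a change in the first base, GGGTCA, in the third base, AGTTCA, or in both of these bases, GGTTCA. A DR5 is 2 of these hexamers in the same direction with 5 bases between. Capitals mark a DR5 in Rarb and Cyp26a1, on the minus strand in Cyp26a1, and both single hexamers in Stra8.
Rarb: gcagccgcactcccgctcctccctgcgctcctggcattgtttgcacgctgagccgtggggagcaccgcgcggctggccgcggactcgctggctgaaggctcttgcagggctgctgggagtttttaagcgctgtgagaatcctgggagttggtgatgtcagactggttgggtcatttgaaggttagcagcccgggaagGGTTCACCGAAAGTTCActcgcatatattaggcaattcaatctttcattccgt
Cyp26a1: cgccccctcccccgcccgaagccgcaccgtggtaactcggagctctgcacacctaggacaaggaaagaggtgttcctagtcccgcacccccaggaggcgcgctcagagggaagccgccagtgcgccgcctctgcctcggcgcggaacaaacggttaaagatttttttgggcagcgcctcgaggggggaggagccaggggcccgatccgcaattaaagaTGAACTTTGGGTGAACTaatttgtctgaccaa
Stra8: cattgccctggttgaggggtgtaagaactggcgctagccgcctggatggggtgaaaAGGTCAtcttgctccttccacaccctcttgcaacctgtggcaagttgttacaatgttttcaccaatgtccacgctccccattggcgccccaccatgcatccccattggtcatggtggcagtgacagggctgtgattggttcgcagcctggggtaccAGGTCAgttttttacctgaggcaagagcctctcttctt

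The Rarb match, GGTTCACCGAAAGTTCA, lay 53 to 37 bases before the start, and the Cyp26a1 match, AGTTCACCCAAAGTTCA, 32 to 16 bases before it. In Stra8 the hexamers began 194 and 38 bases before the start. A DR5 was found in 29 of 32851 such windows (0.0883%) and a hexamer in 12694 (38.6%), so the Stra8 matches are of a common kind. Among genes called higher with the 4 libraries, 638 of 879 had a window (828 windows) and 2 of these genes a DR5 (Rarb and Cyp26a1). Among genes called lower, 691 had a window (906 windows) and 0 a DR5. A difference between these sets was not tested. Of the 12 genes that rose, 7 had a window and 0 a DR5. A match describes letters and is no measured binding site, and the absence of one says only that they are not in this window.

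Stra8 (ENSMUSG00000029848), named for its stimulation by RA and needed by germ cells to enter meiosis, was close to absent at 0 h (0.153 and 0.661 CPM). It stood at 49.2 and 75.4 CPM at 6 h and 141 and 157 CPM at 12 h. Both 12 h libraries were higher, and Stra8 rose by 1.26 ± 0.20, or 2.40-fold (adjusted p = 0.0436), a call lost without any 1 of the 4 libraries (adjusted p of up to 0.698). It had 261 and 229 CPM at 24 h. Of 14 tested genes of meiotic entry and the germ line it was the only one called over 10 libraries. The list had a median of 0.589, against -0.00111 over all genes, with 12 values above 0 and 2 below. At an unadjusted p under 0.05, 4 of these genes were higher and 0 lower. With the 4 libraries 2 of 12 were called higher and 0 lower, beside 6.32% and 6.94% of all genes. Of the defining germ cell markers, Ddx4 stood at 19.9 to 34.5 CPM and Dazl, Sycp3 and Nanos3 at 0.779 to 7.09 CPM in the 4 libraries.

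**Figure D2:**
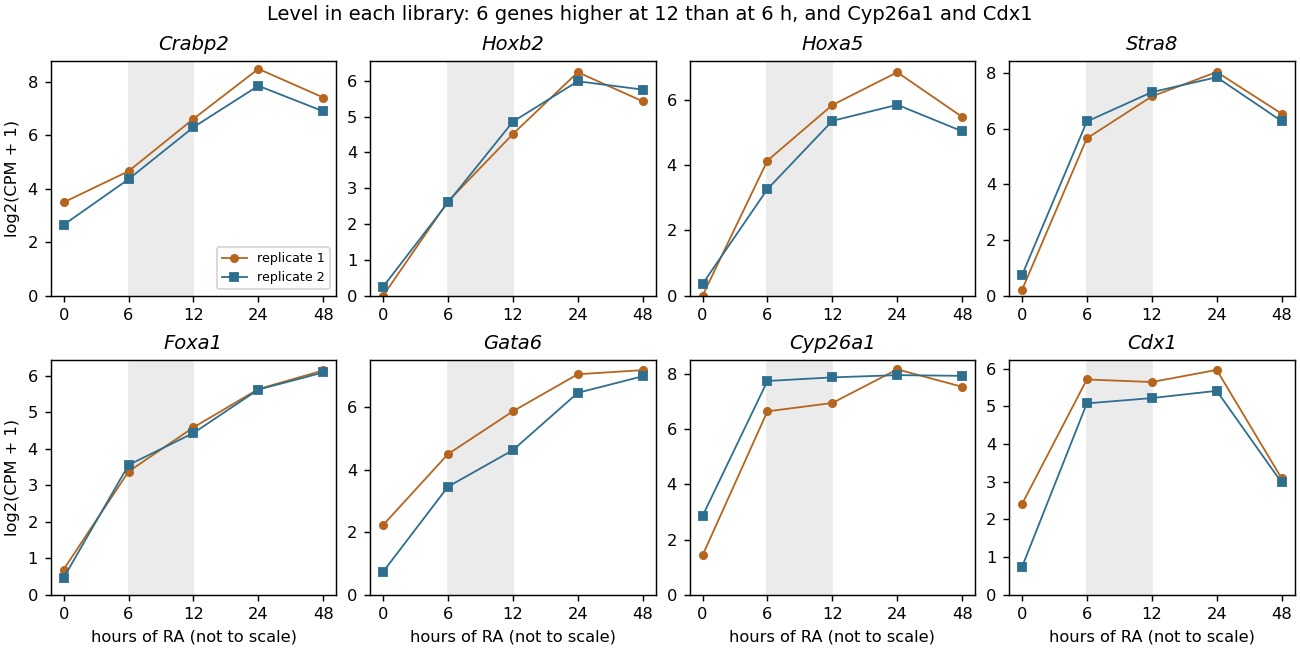
Level of 8 genes as log2(CPM + 1) in each library at 0, 6, 12, 24 and 48 h of RA (times not to scale), with 1 line per replicate number and the interval from 6 to 12 h shaded. Crabp2, Hoxb2, Hoxa5, Stra8, Foxa1 and Gata6 climb through the shaded interval in both replicates, whereas Cyp26a1 and Cdx1 are nearly level there after their step from 0 to 6 h.

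The Hox genes, which encode the transcription factors of position along the body axis, were the largest group among those that rose. Hoxb2 (ENSMUSG00000075588) stood at 5.19 and 5.07 CPM at 6 h and 21.8 and 28.0 CPM at 12 h, after 0 and 0.189 CPM at 0 h. It rose by 2.28 ± 0.24, or 4.85-fold (adjusted p = 0.00261), with no overlap between the groups. Hoxa5 (ENSMUSG00000038253) had 16.6 and 8.61 CPM at 6 h and 56.4 and 40.0 CPM at 12 h, and rose by 1.98 ± 0.22, or 3.94-fold (adjusted p = 0.00471). Hoxb1 (ENSMUSG00000018973), the first gene of its cluster, had 2.99 and 6.80 CPM at 6 h and 12.6 and 20.2 CPM at 12 h, and rose by 1.74 ± 0.29 (adjusted p = 0.0436). Hoxa4 (ENSMUSG00000000942) had 6.10 and 6.51 CPM at 6 h and 21.1 and 16.8 CPM at 12 h, and rose by 1.57 ± 0.25 (adjusted p = 0.0436). In none of the 4 did a 6 h library reach a 12 h library. Hoxb2 did not pass without replicate 2 of 6 or 12 h (highest adjusted p = 0.104), and Hoxa5 without either 6 h library or replicate 2 of 12 h (up to 0.122). Hoxb1 and Hoxa4 did not pass without any 1 of the 4 libraries (up to 0.698 for each), and Hoxb1 also not without replicate 2 of 0 h (0.0538).

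In each cluster 1 tested gene had a value below 0 and the others were positive. In Hoxa, 9 of 11 listed genes were tested, 2 rose and 0 fell, with a median difference of 1.11, against -0.00111 over all genes. In Hoxb, all 10 listed genes were tested, 2 rose and 0 fell, with a median of 1.56. Both 12 h libraries lay above both 6 h libraries for 6 of the 9 and 9 of the 10 genes, beside 12.4% of all genes, and 12.3% lay below. With the 4 libraries 6 of 7 tested genes in each cluster were called higher and 0 lower, beside 6.32% and 6.94% of all genes. These counts describe the genes that passed the filter for low counts, which a gene high at 12 h alone can pass.

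Other members had positive values that did not pass over 10 libraries. Hoxa2 was at 1.11 ± 0.31, Hoxa3 at 1.28 ± 0.22 (adjusted p = 0.0524) and Hoxa7 at 1.59 ± 0.30 (adjusted p = 0.0825). In Hoxb, Hoxb3 was at 1.38 ± 0.40, Hoxb4 at 1.22 ± 0.23 (adjusted p = 0.0801), Hoxb5 at 1.20 ± 0.25 and Hoxb7, at 0.479 to 2.27 CPM in the 4 libraries, at 1.99 ± 0.61. Antisense transcripts overlap Hox genes, and whether the counting used strand is not stated, which leaves single members uncertain. In the Hoxc and Hoxd clusters 10 of 18 genes were tested and 0 were called by edgeR (0 at an unadjusted p under 0.05, DESeq2 0, and 0 with the 4 libraries, where 1 was tested). Hoxc6, Hoxc8, Hoxc9 and Hoxc10 of these 10 had 0 counts in all 4 libraries, so their fitted values say nothing about 6 and 12 h.

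**Figure D3:**
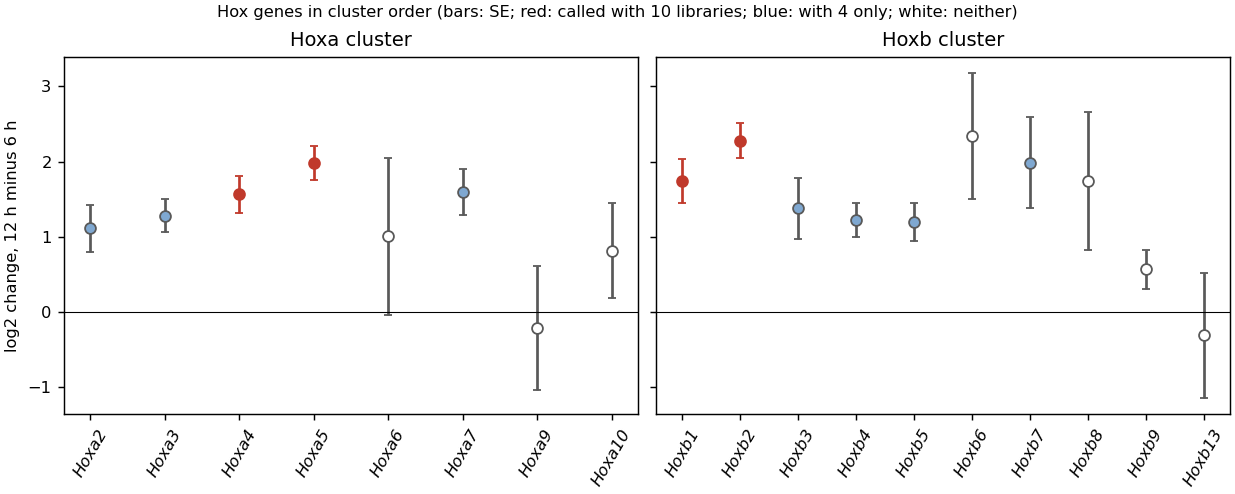
Log2 difference of 12 from 6 h (vertical axis) for tested genes of the Hoxa and Hoxb clusters in their numbered order, with bars of 1 standard error. Red points passed with 10 libraries (Hoxa4, Hoxa5, Hoxb1 and Hoxb2), blue points with the 4 libraries only and white points in neither. Hoxa9 and Hoxb13 are the members below 0, both with bars that cross it.

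Among cofactors and posterior regulators of the Hox system edgeR called 0 of 9 genes over 10 libraries (2 higher at an unadjusted p under 0.05, DESeq2 0). Cdx1, a posterior factor and RA target, stood at 51.5 and 32.8 CPM at 6 h and at 49.1 and 36.3 CPM at 12 h, after 4.29 and 0.661 CPM at 0 h. The 6 to 12 h difference was 0.04 ± 0.27 (adjusted p = 0.987), with opposite signs in the pairs. Meis2 went from 52.5 and 56.8 to 74.9 and 97.5 CPM (0.65 ± 0.25), which did not pass over 10 libraries (adjusted p = 0.546). With the 4 libraries 3 of 9 tested genes of Cdx, Meis and Pbx were called higher, beside 6.32% of all genes. Meis2 and Meis1 (0.57 ± 0.52) were among the 3.

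Foxa1 (ENSMUSG00000035451), a pioneer transcription factor of endoderm, was the member of the primitive endoderm list that rose. It stood at 0.613 and 0.378 CPM at 0 h, 9.35 and 10.7 CPM at 6 h and 22.9 and 20.5 CPM at 12 h. With no overlap between the groups, the rise was 1.10 ± 0.18, or 2.15-fold (adjusted p = 0.0436), and it was lost without any 1 of the 4 libraries (adjusted p of up to 0.723). Gata6, which specifies primitive endoderm, had 21.6 and 9.95 CPM at 6 h and 57.2 and 23.6 CPM at 12 h. Each 12 h library was above each 6 h library, and the difference of 1.34 ± 0.29 did not pass over 10 libraries (adjusted p = 0.176) but did with the 4 libraries (5.11e-11) and in DESeq2 (0.00088). Gata4 was at 0.53 ± 0.29 and Sox7 at 0.24 ± 0.14, while Sox17 and Foxa2 stood at no more than 1.56 and 1.09 CPM in the 4 libraries. In the fit of the 4 libraries 5 of 12 tested regulators were called higher and 0 lower, beside 6.32% and 6.94% of all genes. Gata6, Foxa1, Gata4 and Sox7 were among the 5.

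Genes of the basement membrane, which parietal endoderm lays down in quantity, had values in both directions, 16 positive and 7 negative of 23 tested. Col4a1, a chain of collagen IV, had 149.8 and 82.7 CPM at 6 h and 246 and 108 CPM at 12 h (0.56 ± 0.21, adjusted p = 0.546). Lama1, the laminin alpha chain of early embryos, had 104 and 36.7 CPM at 6 h and 128 and 64.4 CPM at 12 h (0.55 ± 0.16, adjusted p = 0.344). In both the groups overlapped, since replicate 1 was far above replicate 2 at either time. Loxl2, which cross-links collagen, did not overlap and went from 13.4 and 13.4 to 24.0 and 21.1 CPM (0.74 ± 0.22, adjusted p = 0.358). Of 23 tested genes of this list edgeR called 0 (DESeq2 0 higher and 0 lower), with 6 higher and 0 lower at an unadjusted p under 0.05. With the 4 libraries 8 of 21 were called higher and 0 lower, beside 6.32% and 6.94% of all genes. Lamb1, a laminin beta chain (-0.22 ± 0.13), the matrix protein gene Sparc (-0.16 ± 0.13) and Nid2, a nidogen (-0.14 ± 0.15), were among those below 0. The protease genes Plau (2.41 ± 0.77) and Plat (1.17 ± 0.46) had the highest values, at no more than 1.94 CPM in the 4 libraries. The summed level of the list was 3117 and 2359 CPM at 6 h and 3325 and 2442 CPM at 12 h. Among 9 tested visceral endoderm genes edgeR called 0 (0 at an unadjusted p under 0.05, DESeq2 0), and with the 4 libraries 1 of 4 was called each way, Lrp2 higher (0.46 ± 0.39) and Apoe lower (-0.36 ± 0.18).

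The other 5 genes that rose have varied known roles. Gfra1 (ENSMUSG00000025089), the co-receptor for the neurotrophic factor GDNF, went from 5.58 and 5.26 CPM to 18.2 and 12.9 CPM and rose by 1.497 ± 0.24 (adjusted p = 0.0436). Calcoco2 (ENSMUSG00000006056), an autophagy receptor, went from 44.1 and 56.8 CPM to 120.4 and 112 CPM and rose by 1.19 ± 0.17 (adjusted p = 0.0234). Gap43 (ENSMUSG00000047261), a protein of nerve growth cones, went from 13.6 and 9.57 CPM to 28.3 and 27.5 CPM and rose by 1.30 ± 0.20 (adjusted p = 0.0415). At 0 h Gap43 had 13.6 and 7.65 CPM and Calcoco2 4.29 and 3.40 CPM, while Gfra1 had 0.460 and 0.283 CPM. Prtg (ENSMUSG00000036030), an immunoglobulin-family receptor of the early embryo, went from 3.37 and 5.67 CPM at 0 h and 9.48 and 18.3 CPM at 6 h to 21.3 and 35.9 CPM and rose by 1.06 ± 0.16 (adjusted p = 0.0378). Pik3r1 (ENSMUSG00000041417), a regulatory subunit of PI3-kinase, went from 14.9 and 13.0 CPM at 0 h and 20.1 and 15.8 CPM at 6 h to 39.0 and 28.1 CPM and rose by 0.89 ± 0.15 (adjusted p = 0.0436). In all 5 the groups did not overlap, and none passed without replicate 1 of 6 h (highest adjusted p = 0.698), nor without some of the other libraries, which for Pik3r1 included either library of 0 h (0.0591 and 0.0538). Zfp703, a transcriptional cofactor, had a larger value that did not pass: it went from 13.1 and 22.9 CPM to 63.8 and 67.7 CPM (1.85 ± 0.33, adjusted p = 0.0868).

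Egr1 (ENSMUSG00000038418), an immediate early transcription factor gene that growth factors switch on through ERK, fell most. It stood at 18.4 and 21.2 CPM at 0 h, at 24.5 and 67.9 CPM at 6 h and at 5.82 and 9.83 CPM at 12 h. The replicates stood far apart at 6 h, yet both 12 h libraries were below both 6 h libraries, and Egr1 fell by 2.50 ± 0.32 on the log2 scale, or 5.64-fold (adjusted p = 0.0123). It did not pass without replicate 2 of 6 h (adjusted p = 0.305) or without either 12 h library (up to 0.304). Id3 (ENSMUSG00000007872), an inhibitor of helix-loop-helix factors and a target of BMP signals, had 101 and 174 CPM at 6 h and 44.4 and 83.1 CPM at 12 h. It fell by 1.13 ± 0.13 (adjusted p = 0.00599), a call lost without any 1 of the 4 libraries (adjusted p of up to 0.232). Fam129b (ENSMUSG00000026796), a member of the Niban family, had 279.7 and 185 CPM at 6 h and 164 and 99.5 CPM at 12 h, fell by 0.83 ± 0.13 (adjusted p = 0.0436; up to 0.698 with 1 library left out), and read 278 and 208 CPM at 48 h, near its 313 and 238 CPM at 0 h.

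**Figure D4:**
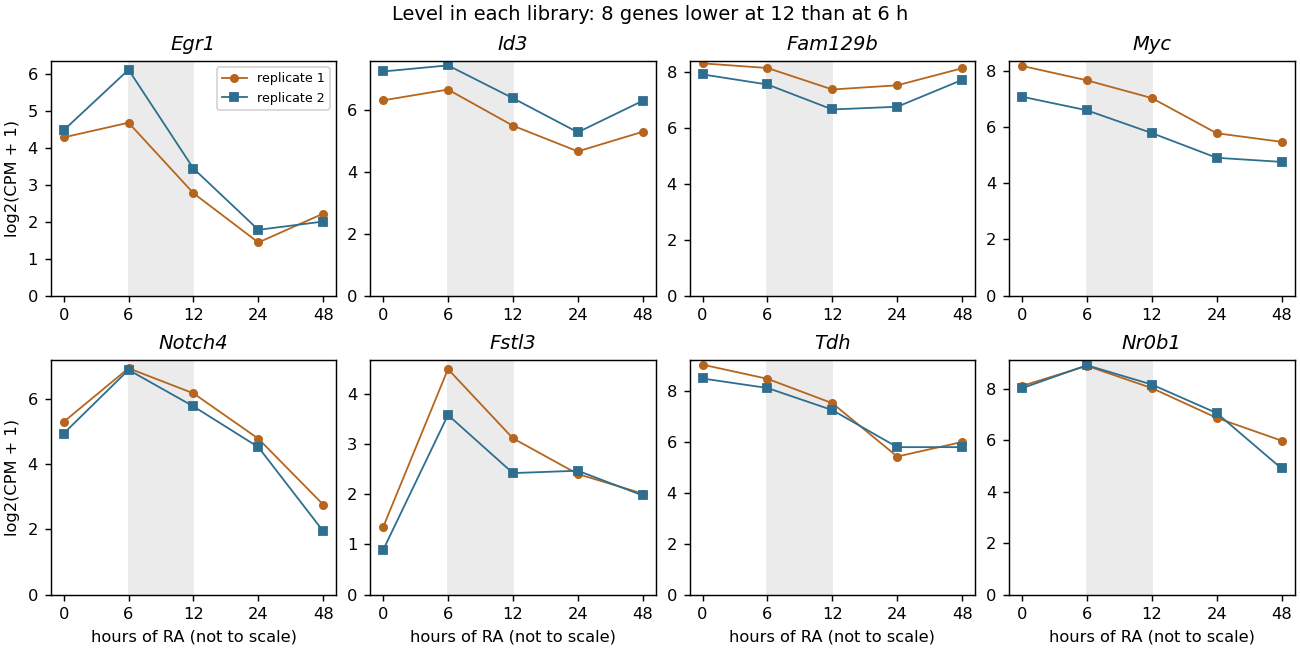
Level of 8 genes as log2(CPM + 1) in each library at 0, 6, 12, 24 and 48 h of RA (times not to scale), with 1 line per replicate number and the interval from 6 to 12 h shaded. Egr1, Id3 and Fam129b fell, while Myc, Notch4, Fstl3, Tdh and Nr0b1 passed only in other fits. Notch4, Fstl3 and Nr0b1 peak at 6 h in both replicates.

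Other immediate early genes had values in the same direction as Egr1. Nr4a1, an orphan nuclear receptor gene, went from 199 and 135 CPM to 118 and 82.9 CPM (-0.73 ± 0.13, adjusted p = 0.0594). Ier2 went from 239 and 203 CPM to 175 and 121 CPM (-0.60 ± 0.15, adjusted p = 0.218). Junb, a subunit of the AP-1 factor, went from 15.4 and 10.9 CPM to 7.27 and 6.05 CPM (-0.96 ± 0.37, adjusted p = 0.53). None of these groups overlapped. Of 24 tested immediate early genes 1 fell (Egr1) and 0 rose, with a median of -0.30. With the 4 libraries 7 of 23 were called lower and 1, Klf6, higher (0.34 ± 0.12), beside 6.94% and 6.32% of all genes.

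Some genes that read higher at 6 than at 0 h had lower values again at 12 h. Notch4, a Notch receptor gene, read 38.0 and 29.5 CPM at 0 h, 121 and 116 CPM at 6 h and 70.4 and 53.2 CPM at 12 h (-0.96 ± 0.17, adjusted p = 0.0548). Fstl3, a secreted inhibitor of activin, read 1.53 and 0.850 CPM at 0 h, 21.4 and 10.9 CPM at 6 h and 7.64 and 4.35 CPM at 12 h (-1.41 ± 0.32, adjusted p = 0.172). Meltf, which encodes melanotransferrin, read 0.460 and 0.378 CPM at 0 h, 8.96 and 8.52 CPM at 6 h and 1.94 and 2.55 CPM at 12 h (-1.94 ± 0.39, adjusted p = 0.0896). In each the 12 h libraries lay below the 6 h libraries and above those of 0 h. None passed over 10 libraries and all 3 were called lower with the 4 libraries, at adjusted p from 5.11e-11 to 2.44e-06. The comparison with 0 h shares the 6 h libraries with that of 12 against 6 h, so a high 6 h value enters both. These genes and Castor1, an arginine sensor of the mTORC1 pathway (27.9 and 27.2 CPM at 6 h, 13.5 and 12.9 CPM at 12 h; -1.06 ± 0.18, adjusted p = 0.0501), were chosen after their values were seen.

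In the pluripotency network none of the core factors passed over 10 libraries. Sox2 read 438 and 422 CPM at 6 h and 433 and 439 CPM at 12 h (0.02 ± 0.17, with the sign turned without replicate 1 of 6 h or replicate 2 of 12 h), after 847 and 542 CPM at 0 h. Nanog read 399 and 552 CPM at 6 h and 363 and 556 CPM at 12 h (-0.06 ± 0.16, positive without replicate 1 of 12 h). Pou5f1, which encodes Oct4, read 2433 and 1735 CPM at 6 h and 1933 and 1357 CPM at 12 h, lower in each pair by 0.33 and 0.35 with the groups overlapping (-0.34 ± 0.16, adjusted p = 0.609). Pou5f1 and Esrrb (-0.29 ± 0.13) were called lower with the 4 libraries, and Sox2, Nanog, Klf4 and Fgf4 were not.

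Larger values belonged to genes around that core. Tdh, the threonine dehydrogenase of pluripotent mouse cells, had 359.5 and 279 CPM at 6 h and 184 and 153 CPM at 12 h (-0.92 ± 0.18, adjusted p = 0.0825). Nr0b1, an orphan nuclear receptor gene of the network, had 274 and 257 CPM at 0 h, 471 and 479 CPM at 6 h and 258 and 285 CPM at 12 h (-0.80 ± 0.24, adjusted p = 0.407). Utf1, a chromatin factor of pluripotent cells, had 474 and 222 CPM at 6 h and 329 and 132 CPM at 12 h (-0.64 ± 0.13, adjusted p = 0.0976). For Tdh and Nr0b1 the groups did not overlap, and for Utf1 they did. Over the list edgeR called 0 of 38 genes (0 higher and 9 lower at an unadjusted p under 0.05, DESeq2 0 higher and 2 lower), with a median of -0.20. With the 4 libraries 15 were called lower and 1, Tbx3, higher (0.27 ± 0.20), beside 6.94% and 6.32% of all genes. Of 8 tested DNA methylation enzymes 4 were called lower with the 4 libraries, among them the de novo methylation genes Dnmt3b (109.8 and 132 CPM at 6 h, 84.6 and 106 CPM at 12 h; -0.35 ± 0.14) and Dnmt3l (72.4 and 88.0 CPM, then 40.6 and 70.2 CPM; -0.56 ± 0.18).

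Myc, which drives growth and ribosome production, had 200.3 and 95.2 CPM at 6 h and 129 and 54.0 CPM at 12 h. Each pair went down, by 0.63 and 0.82, while replicate 1 at 12 h still lay above replicate 2 at 6 h (-0.72 ± 0.14, adjusted p = 0.0868; with the 4 libraries 4.12e-09). Mycn was at -0.79 ± 0.25 and its relative Mycl at 1.08 ± 0.37 from 3.38 and 4.50 CPM at 6 h. Genes that build ribosomes had small values: Bop1, of the large subunit, went from 239 and 190.5 CPM to 186 and 139 CPM (-0.41 ± 0.12) and Nop16 from 118 and 85.9 CPM to 84.4 and 63.4 CPM (-0.46 ± 0.13). In that list edgeR called 0 of 39 genes over 10 libraries (2 higher and 9 lower at an unadjusted p under 0.05, DESeq2 0 higher and 1 lower), with a median of -0.17 and 34 values below 0. With the 4 libraries 13 were called lower and 4 higher, beside 6.94% and 6.32% of all genes. For cytosolic ribosomal proteins 15 of 77 were called lower and 1 higher with the 4 libraries, with a median of -0.15. Many of these have near-identical copies in the genome, so single members are uncertain.

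Signalling lists held 1 call over 10 libraries, and shares with the 4 libraries are to be read beside 6.32% higher and 6.94% lower over all genes. In the BMP list Id3 fell, and Id1, another BMP target, went from 421 and 484 CPM to 266 and 321 CPM with no overlap (-0.62 ± 0.14, adjusted p = 0.149), while the ligand gene Bmp4 was at -0.55 ± 0.20. Msx1, also known as a BMP target, had a positive value from 0.779 and 2.11 CPM to 2.67 and 6.52 CPM (1.67 ± 0.43, adjusted p = 0.252). In the 4-library fit 3 of 19 BMP genes were called lower and 1 higher, which were these 4. Over the 23 BMP genes tested with 10 libraries the median was 0.138, with 15 values above 0 and 8 below. The other Id genes, Id2 and Id4, were at 0.04 ± 0.12 and 0.02 ± 0.37. In the FGF list 4 of 22 were called lower, with Spry4 (-0.36 ± 0.14), Spry2 (-0.37 ± 0.15) and Dusp5 (-0.54 ± 0.21) among them. Il17rd was the 1 called higher (0.40 ± 0.30). Dusp6 (-0.02 ± 0.18), Spred1 (-0.09 ± 0.24) and Spred2 (-0.08 ± 0.19) of that list were called in neither direction. In the Nodal list 3 of 17 were called lower, Fstl3, Nodal (-0.35 ± 0.21) and its co-receptor gene Tdgf1 (-0.38 ± 0.31). In the Wnt list 3 of 25 were called higher and 2 lower, with the factor gene Sp8 (4.54 and 7.66 CPM at 6 h, 15.4 and 23.5 CPM at 12 h; 1.66 ± 0.38) and the inhibitor gene Sfrp5 (1.51 ± 0.40) among the higher and Wnt6 (-0.85 ± 0.26) among the lower, shares near those over all genes.

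Cell cycle genes had values in both directions. Over all genes 6.32% were called higher and 6.94% lower with the 4 libraries. With the 4 libraries 4 of 19 cell cycle inhibitors and G1 cyclins were called higher: Rb1, the retinoblastoma gene, went from 45.6 and 46.9 CPM to 62.0 and 66.7 CPM (0.48 ± 0.14), Cdkn1b, which encodes the inhibitor p27, was at 0.37 ± 0.13, and the cyclin genes Ccnd2 and Ccng2 were at 0.53 ± 0.28 and 0.59 ± 0.21. The E2F gene E2f2 was among 2 called lower (-0.51 ± 0.16). In DNA replication 7 of 38 were called lower, such as Cdt1, which licenses origins (-0.31 ± 0.11), and 2 higher, and in mitosis 1 of 25 was called lower and 0 higher. None of these genes passed over 10 libraries.

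**Figure D5:**
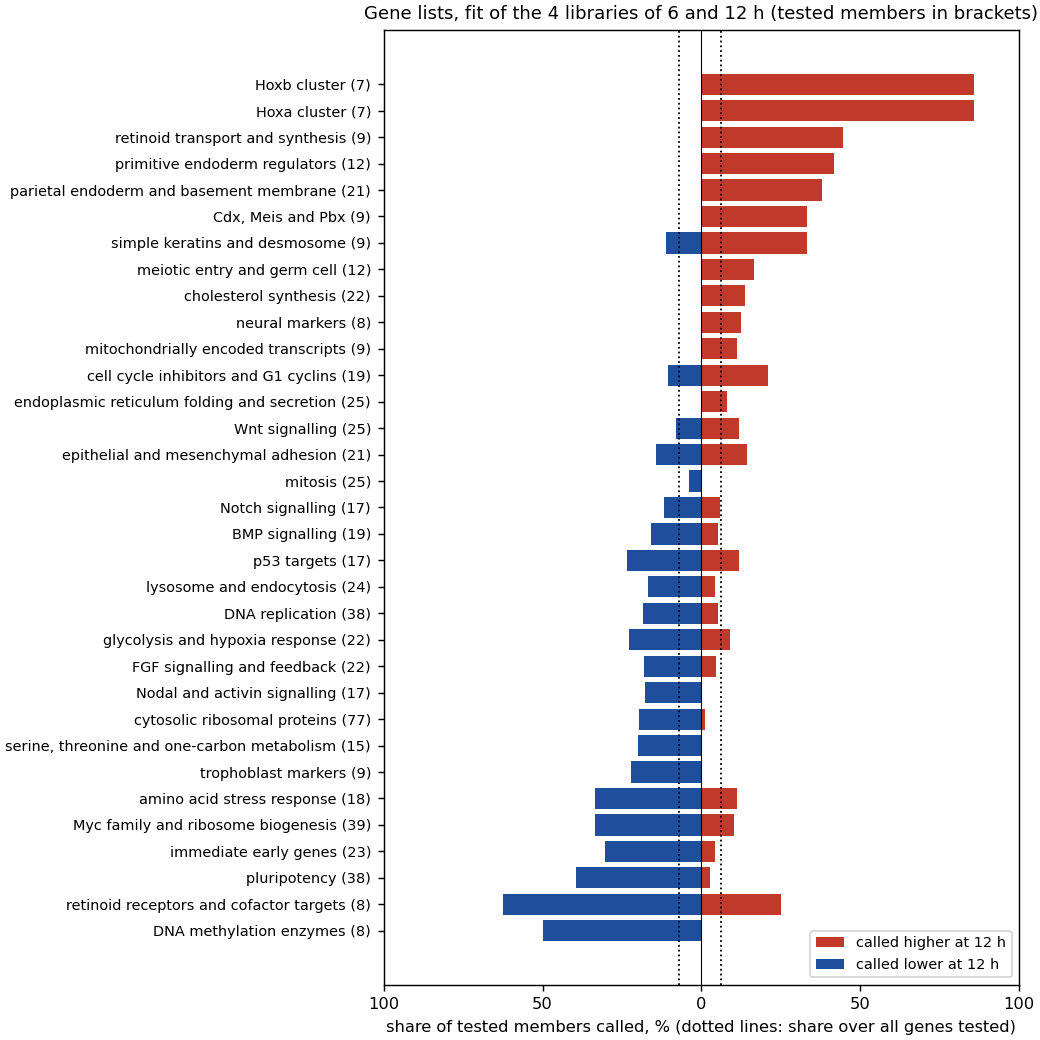
Share of tested members called higher (red, to the right) or lower (blue, to the left) at 12 than at 6 h in the fit of the 4 libraries, in percent, for lists with at least 7 tested genes (number in brackets). Dotted lines mark the share over all genes, 6.32% higher and 6.94% lower. Hoxa and Hoxb stand at 6 of 7 called higher, and receptors and cofactors at 5 of 8 called lower. Lists were chosen with earlier results of these data known, and were described and not tested.

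The remaining lists are given by their counts with the 4 libraries, beside 6.32% higher and 6.94% lower over all genes. Glycolysis and hypoxia had 2 of 22 called higher and 5 lower, the amino acid stress response 2 of 18 higher and 6 lower, p53 targets 2 of 17 higher and 4 lower, lysosome and endocytosis 1 of 24 higher and 4 lower, cholesterol synthesis 3 of 22 higher and 0 lower, and folding and secretion in the endoplasmic reticulum 2 of 25 higher and 0 lower. Adhesion genes had 3 of 21 each way, keratins and desmosome 3 of 9 higher and 1 lower, one-carbon metabolism 0 of 15 higher and 3 lower, Notch 1 of 17 higher and 2 lower, and mitochondrially encoded transcripts 1 of 9 higher. Markers of other lineages gave 2 of 9 trophoblast genes called lower, 1 of 8 neural genes higher and 1 of 4 mesoderm genes lower. Their summed levels at 6 and 12 h were 148.8 to 222.9 and 112 to 179.6 CPM for trophoblast, 276.7 to 285 and 277.5 to 283.3 CPM for neural, and 19.05 to 31.68 and 15.69 to 28.13 CPM for mesoderm. Of their defining markers Neurog2 and Msgn1 had 0 counts in the 4 libraries, Elf5, Hand1, Mesp1, Tbx6 and T lay at no more than 1.23 CPM, Esx1 reached 2.39 CPM, and Eomes and Pax6 reached 46.4 and 52.0 CPM. The part of such cells in the results above was not tested.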

How the data were processed

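Messenger RNA of F9 cells was sequenced, and the deposited files give raw read counts per gene for each library, with 36814 genes by Ensembl identifier, 31841 of them paired with a symbol. The submitters' processing notes name TopHat2 2.0.7, HTSeq, DESeq, Bowtie 0.12.9 and MACS 1.4.2 and the mouse build mm9, without saying which step used which. Whether the counting used strand is not given in the sources used here. The 5 entries that name no gene took 72.52 to 76.78% of each library's total and were left out. Gene counts ran from 7078941 to 10948932 over the 14 libraries, which limits genes near 1 CPM most.

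From these counts, edgeR 4.0.16 (limma 3.58.1, R 4.3.3) was fitted with TMM scaling, its filter on low counts and a robust quasi-likelihood test over the 10 libraries numbered 1 and 2 at 0, 6, 12, 24 and 48 h, with group and replicate number as terms. The contrast was 12 h minus 6 h, adjusted by Benjamini-Hochberg over all genes and called at 0.05. CPM values are TMM-scaled. Each standard error was worked back from the quasi-likelihood test, as the absolute log2 difference divided by the square root of its F statistic. The numbers come from the titles. They were taken as pairs because same-numbered libraries deviated together in each of 10 pairs of times (r from 0.665 to 0.784), and no label says what a number shares. The fits were tested on simulated counts with known changes.

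Named genes were those called that averaged 5 CPM or more in the 4 libraries and had the same sign in both pairs (at most 12 in each direction), up to 4 called members of each list, and a set of RA, Hox, endoderm, pluripotency and Myc genes whatever their result. Further list members were named after their values were seen. The members and lists were chosen with earlier results of these data known. Alternatives were DESeq2 1.42.0, other scaling, filters and thresholds, other sets of libraries, no block, and leaving out each library. Promoter windows came from RefSeq, and bound regions were not used here. Results on some single genes are not reported here. Figures were drawn with Python 3.11.15, pandas 2.3.3 and matplotlib 3.10.9.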

Additional observations from a re-analysis of the deposited data

How the results depend on the processing

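The count of 15 genes called (12 higher, 3 lower) depended on the replicate block. Without the block edgeR called 0 genes over the 10 libraries, 0 over all 14 and 0 over the 4 (266, 287 and 173 at an unadjusted p under 0.05), and a term for the library set over 14 libraries gave 3 (3 higher, 0 lower). With the block, the 4 libraries gave 1844 (879 and 965), 0 to 12 h gave 971 (451 and 520) and the libraries without 24 h gave 73 (36 and 37), the last 2 chosen after seeing the data. DESeq2 gave 83 (51 and 32), no filter 124 (86 and 38), DESeq2's size factors 20 (15 and 5), and an adjusted p under 0.01 4 (3 and 1). With 1 library left out the counts ran from 1 to 92 in all, 1 to 48 higher and 0 to 44 lower. The cause of these differences was not tested. With 1 library left out, the log2 difference ran from -0.067 to 0.543 for Cyp26a1 (also -0.010), from -0.10 to 0.56 for Lefty1, from -0.087 to 0.160 for Cdx1, from -0.15 to 0.18 for Sox2 (also -0.09), from -0.36 to 0.46 for Klf4 (also -0.23), from -0.19 to 0.057 for Nanog and from -0.60 to 0.47 for Hoxa9, so each of these changed sign. The 15 genes kept their sign in every alternative run, each of which reuses libraries of the fit that called them.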
